A study of Mus musculus with 21 samples.

Results

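The first 3 days of embryoid body culture were examined in wild type mouse cells, by setting day 3 against day 0. Embryoid bodies are aggregates in which embryonic stem cells (ESCs) leave pluripotency and begin to differentiate. The genes described are those with a mean of at least 1 FPKM over the 4 wild type libraries of days 3 and 0, which are 12112 of the 24458 genes in the table (49.5%). FPKM divides a gene's fragment count by transcript length in kilobases and by library size. The minimum uses the level and not the change, and Rab3b (1.00025) and 4932416H05Rik (1.0003) lay just inside it, while Nxf3 (0.998) and Arhgap33 (0.999) lay just outside. A gene that is silent on one day can pass on the other day's level alone.

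The tested libraries were 2 Rinf Wild type embryoid bodies at day 3, and the libraries they were set against were 2 Rinf Wild type samples at day 0. Rinf Knockout libraries, 2 at day 3 and 2 at day 0, came from Cxxc5 (Rinf) knockout cells and were used to estimate the spread and for a comparison of the changes. All were V6.5 cells of mixed 129/C57BL/6 strain at passages 15 to 18, with no other allele or agent in the labels. ESCs were kept on gelatin in serum with LIF, and embryoid bodies were made in hanging drops, in a medium that the labels do not state. The series' design text gives 2 independent ESC lines per genotype, so a p-value measures the spread between these samples only. An exact two-sided permutation test of 2 libraries against 2 cannot give a p under 0.333. Every adjusted p below therefore comes from limma fitted across all genes tested, 12112 in the main fit. Adjustment was by Benjamini-Hochberg, and a gene is called where the adjusted p is under 0.05. Each log2 change is day 3 minus day 0 of log2(FPKM + 1), with its SE, so that changes between low values appear smaller than they are.

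ESCs in serum and LIF are held near a naive state, in which LIF acts through STAT3 and a set of transcription factors including Nanog, Esrrb, Klf4 and Tfcp2l1 keep one another active. On release from this state cells pass through a formative stage that resembles the epiblast shortly after implantation, with Otx2, Pou3f1 and Fgf5 as markers, and acquire the competence to form the germ layers. Pou5f1 and Sox2 are expressed in both states, whereas primitive streak genes such as T and Mixl1 follow later.

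Estimated depth was 15.2 to 30.9 M reads in the 4 libraries, so that 1 FPKM in a transcript of 2 kb rested on 30.4 to 61.9 reads. The log2 values of the replicates correlated at 0.976 at day 3 and 0.981 at day 0 (Pearson's r across 12112 genes, which are not independent). Between the replicates 192 genes at day 3 and 227 at day 0 differed by over 1.5-fold. The defining ESC markers Pou5f1, Sox2, Nanog, Zfp42, Esrrb and Tdgf1 were all detected in every library. Feeder fibroblast markers summed to 30.5 and 31.9 FPKM at day 3, against 24.9 and 30.0 FPKM at day 0 over 13 genes. Of 5 of them tested, 2 were higher and 3 lower, Col1a1 (-1.18), Col1a2 (-1.13) and S100a4 (-1.24), with a median of -1.13; with any 1 wild type library left out, 0 or 1 gene of the list was lower. Of the 2-cell-like markers 0 of 11 reached the minimum, and they summed to 0.281 and 0.553 FPKM at day 3, against 0.773 and 0.854 FPKM at day 0. In bulk RNA, fewer cells of a type and less RNA per cell cannot be told apart, which touches every change given here.

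Of the 12112 genes, 7713 were called (63.7%), 3467 higher at day 3 (28.6%) and 4246 lower (35.1%). The counts of called genes in the lists below are to be read beside these shares. The libraries of the days did not overlap for 9540 genes (78.8%), and 8130 genes had an unadjusted p under 0.05. A change of at least 2-fold was called for 849 genes that rose (7.01%) and 726 that fell (5.99%). The median change of all tested genes was -0.04. Among 11128 protein coding genes 3286 were higher and 3997 lower, and among 334 long noncoding RNAs 63 were higher and 92 lower. Of 189 short RNAs 15 were higher and 9 lower, but their FPKM values rest on very few reads because the transcripts are short. Rpph1, Rmrp, Eef1a1, Hist1h4d and Rps26, the 5 genes with the highest mean level, were not called, with log2 changes between -0.21 and 0.09. Rmrp, the RNA of RNase MRP, had 17064 and 12497 FPKM at day 3, against 9636 and 21966 FPKM at day 0, so that its replicates differed by more than its days.

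**Figure D1:**
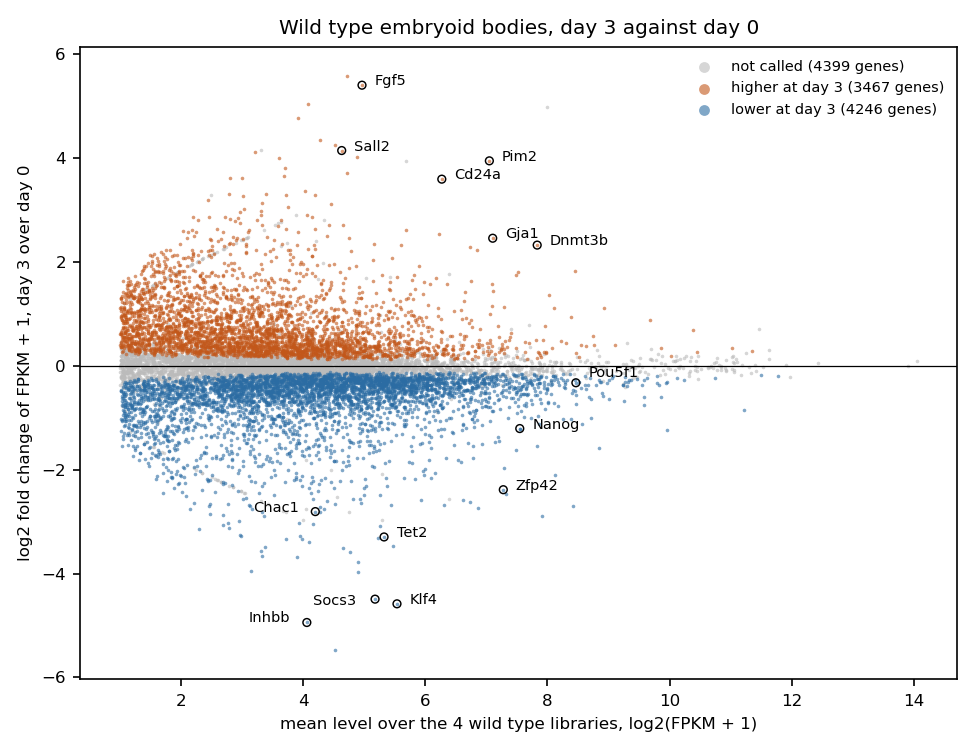
Change of each of the 12112 tested genes (y axis, log2 fold change of FPKM + 1, day 3 over day 0) against its mean level in the 4 wild type libraries (x axis, log2 of FPKM + 1), coloured by call. Fgf5, at 5.40, lies near the top, and Inhbb, Klf4 and Socs3, between -4.94 and -4.49, near the bottom, while the abundant Pou5f1 lies at -0.33.

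The naive network fell as a whole. All 16 naive pluripotency genes were called lower, 15 of them by at least 2-fold, with a median log2 change of -2.01 against -0.04 over all tested genes. Their summed level was 362 and 427 FPKM in the day 3 libraries, against 1526 and 1538 FPKM in the day 0 libraries. The 16 calls held without any 1 of the 4 wild type libraries. No member had a day 3 library as high as a day 0 library. The days did not overlap for 78.8% of all tested genes.

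Klf4, a Kruppel-like factor used in reprogramming, had 2.18 and 3.33 FPKM at day 3, against 92.1 and 83.7 FPKM at day 0 (log2 change -4.58, SE 0.15, adjusted p = 2.18e-06). Tet2, an enzyme that oxidises 5-methylcytosine, had 6.01 and 6.74 FPKM at day 3 and 78.6 and 64.7 FPKM at day 0 (-3.29, SE 0.10, adjusted p = 1.91e-06). Tbx3, a T-box factor of the naive network, stood at 3.28 and 4.35 FPKM at day 3, against 31.2 and 34.1 FPKM at day 0 (-2.81, SE 0.11). These 3 genes lost most of their transcript level by day 3. Klf5 (-2.73), Zfp42 (-2.38), Tfcp2l1 (-2.34), Gbx2 (-2.19) and Tcl1 (-2.15), transcription factor genes apart from the AKT cofactor gene Tcl1, also fell by over 2 on the log2 scale.

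Nanog, Klf2, Esrrb and Dppa3 fell by under 2 on the log2 scale and kept over 25 FPKM at day 3. Zfp42 (42.8 and 55.2 FPKM) and Klf5 (28.8 and 30.1 FPKM), with larger falls, also kept over 25 FPKM. Nanog, a homeobox factor of the core network, had 108 and 116 FPKM at day 3, against 252 and 267 FPKM at day 0 (log2 change -1.21, SE 0.07, adjusted p = 1.27e-05). Klf2 had 45.2 and 62.2 FPKM at day 3, against 137 and 167 FPKM at day 0 (-1.49, SE 0.15). Esrrb, an orphan nuclear receptor, had 30.4 and 41.2 FPKM at day 3 and 122 and 125 FPKM at day 0 (-1.77, SE 0.13). Dppa3, a maternal factor that protects DNA methylation marks, changed least in the list, with 28.3 and 29.0 FPKM at day 3, against 49.6 and 57.6 FPKM at day 0 (-0.88, SE 0.11, adjusted p = 0.000422). The remaining members were Fgf4 (-1.88), Prdm14 (-1.79; 1.86 and 2.53 FPKM at day 3), Nr0b1 (-1.54) and Nr5a2 (-1.53).

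Receptor, transducer and target genes of the LIF pathway fell, the kinase Jak1 aside. Of 13 genes of LIF reception, STAT3 and its targets 12 were lower and 0 higher, with a median of -1.84; 4 of the 13, Klf4, Klf5, Gbx2 and Tfcp2l1, are also in the naive list. Lifr, the ligand-binding receptor subunit, had 8.19 and 9.53 FPKM at day 3, against 34.3 and 34.2 FPKM at day 0 (-1.84, SE 0.09, adjusted p = 6.21e-06). Il6st, the shared signalling subunit gp130, had 11.9 and 14.2 FPKM at day 3 and 22.5 and 19.8 FPKM at day 0 (-0.66, SE 0.10, adjusted p = 0.000965). Jak1, the receptor-associated kinase, was the 1 member not called, at 13.7 and 13.1 FPKM at day 3, against 15.7 and 12.7 FPKM at day 0 (-0.07, SE 0.09, adjusted p = 0.531). Stat3 had 6.70 and 7.18 FPKM at day 3, against 25.1 and 25.0 FPKM at day 0 (-1.71, SE 0.07, adjusted p = 3.25e-06).

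Socs3, the feedback inhibitor that STAT3 induces, showed the largest change of the targets outside the naive list. It had 2.15 and 2.00 FPKM at day 3, against 65.1 and 71.2 FPKM at day 0 (log2 change -4.49, SE 0.06, adjusted p = 2.53e-07), a mean 32.9-fold higher at day 0. Bcl3, a nuclear IkB protein, had 0.955 and 1.36 FPKM at day 3 and 27.9 and 25.5 FPKM at day 0 (-3.69, SE 0.10, adjusted p = 1.16e-06). The kinase genes Pim3 (-1.47) and Pim1 (-0.84) and the AP-1 gene Junb (-0.65) fell as well. The paralogous kinase Pim2 moved the other way, at 245 and 250 FPKM at day 3, against 14.4 and 15.9 FPKM at day 0 (3.95, SE 0.06, adjusted p = 4.66e-07). The mean of Pim2 was 16.4-fold higher at day 3, and its libraries lay close together within each day.

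The 250 bases before a RefSeq start of Socs3, Pim2 and Fgf5 are shown because these genes made some of the largest moves of the LIF and formative programmes (RefSeq, GRCm38.p6, each written 5′ to 3′ on the gene's strand). The search was for TTCNNNGAA, a spaced palindrome bound by STAT dimers that reads the same on both strands, and for ATGCAAAT on both strands, the octamer bound by POU factors. The genes and motifs were chosen with their matches known. In Socs3 (chr11:117969367-117969616, minus strand) capitals mark TTCTTAGAA, which starts 154 bases before the start. The Socs3 window lies inside the annotated gene span (chr11:117966079-117970336), before an internal start. The windows of Pim2 and Fgf5 directly precede their gene spans. In Pim2 (chrX:7878056-7878305, plus strand) capitals mark octamers at 202 bases, as its reverse complement, and 123 bases before the start. In Fgf5 (chr5:98253934-98254183, plus strand) they mark its 24 CpG.
Socs3: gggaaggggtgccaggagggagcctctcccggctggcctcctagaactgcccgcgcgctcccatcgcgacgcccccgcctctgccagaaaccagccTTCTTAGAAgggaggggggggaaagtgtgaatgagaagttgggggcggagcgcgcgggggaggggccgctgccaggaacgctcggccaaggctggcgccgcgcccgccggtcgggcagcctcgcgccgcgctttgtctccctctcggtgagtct
Pim2: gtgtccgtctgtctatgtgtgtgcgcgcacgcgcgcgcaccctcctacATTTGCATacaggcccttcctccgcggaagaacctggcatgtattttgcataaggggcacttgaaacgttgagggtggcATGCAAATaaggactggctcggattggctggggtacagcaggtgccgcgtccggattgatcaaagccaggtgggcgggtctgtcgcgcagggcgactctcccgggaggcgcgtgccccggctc
Fgf5: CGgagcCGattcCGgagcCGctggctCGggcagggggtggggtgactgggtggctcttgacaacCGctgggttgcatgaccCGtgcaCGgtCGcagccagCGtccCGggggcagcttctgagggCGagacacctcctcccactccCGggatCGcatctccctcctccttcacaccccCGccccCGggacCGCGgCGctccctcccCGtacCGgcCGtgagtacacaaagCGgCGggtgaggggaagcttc
Over all 32851 mouse promoters in the table, taken as 250 bases each, 7.02% held TTCNNNGAA and 1.601% the octamer. Among the 12 genes of the LIF list with a promoter in it, only Socs3 (1 gene) held TTCNNNGAA. A match is a description of these letters and not evidence of binding.

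Genes of the formative and primed epiblast rose. Of 20 list members 19 were called higher and 0 lower, with a median log2 change of 1.86, and 14 rose by at least 2-fold. Their summed level was 1238 and 1222 FPKM at day 3, against 285 and 286 FPKM at day 0. Leaving out 1 wild type library at a time kept 16 to 19 of the calls. The member not called was Lef1, a Wnt effector, with 11.3 and 14.5 FPKM at day 3, against 14.9 and 18.0 FPKM at day 0 (-0.33, SE 0.14, adjusted p = 0.0723). Lef1 was called lower without wild type day 3 replicate 2 (adjusted p = 0.0302) or day 0 replicate 1 (0.0488), within 0.00996 to 0.362 over the alternatives.

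Fgf5, a growth factor of the post-implantation epiblast, had 60.9 and 58.7 FPKM at day 3, against 0.276 and 0.619 FPKM at day 0 (log2 change 5.40, SE 0.24, adjusted p = 4.5e-06). Its mean was 134-fold higher at day 3, and both day 0 values were under 1 FPKM. Sall2, a zinc finger factor, had 49.4 and 42.2 FPKM at day 3 and 1.69 and 1.59 FPKM at day 0 (4.15, SE 0.10, adjusted p = 9.82e-07). Pou3f1, the POU factor Oct6, had 38.8 and 37.5 FPKM at day 3, against 3.35 and 3.69 FPKM at day 0 (3.12, SE 0.09, adjusted p = 1.66e-06). Otx2, a homeobox factor that directs Pou5f1 to formative enhancers, was already present at day 0, with 58.3 and 59.5 FPKM at day 3, against 9.68 and 11.9 FPKM at day 0 (2.35, SE 0.15). The groups stood clear of each other for each of these genes, as they did for 78.8% of all tested genes.

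Dnmt3b, a de novo DNA methyltransferase, was the most abundant member, at 382 and 375 FPKM at day 3 and 79.8 and 70.0 FPKM at day 0 (2.32, SE 0.09, adjusted p = 3.25e-06). Cdh2, N-cadherin, had 10.2 and 10.8 FPKM at day 3, against 1.12 and 1.43 FPKM at day 0 (2.34, SE 0.09). The SOX factor genes Sox3 (2.82), Sox4 (1.93) and Sox11 (1.78) rose together with Car14, a carbonic anhydrase (2.97), Fgf15 (1.61), Wnt8a (1.52) and Zic2 (1.37). Pim2, described above, and Dnmt3a are also members. Smaller changes were those of Tead2 (0.95), Lin28b (0.88) and Grhl2 (0.84). Foxd3, a forkhead factor of the transition, had 11.3 and 13.5 FPKM at day 3, against 5.71 and 8.68 FPKM at day 0 (0.73, SE 0.17, adjusted p = 0.00816), and its call ended without wild type day 3 replicate 2 (adjusted p = 0.0618, within 0.00116 to 0.233 over the alternatives).

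**Figure D2:**
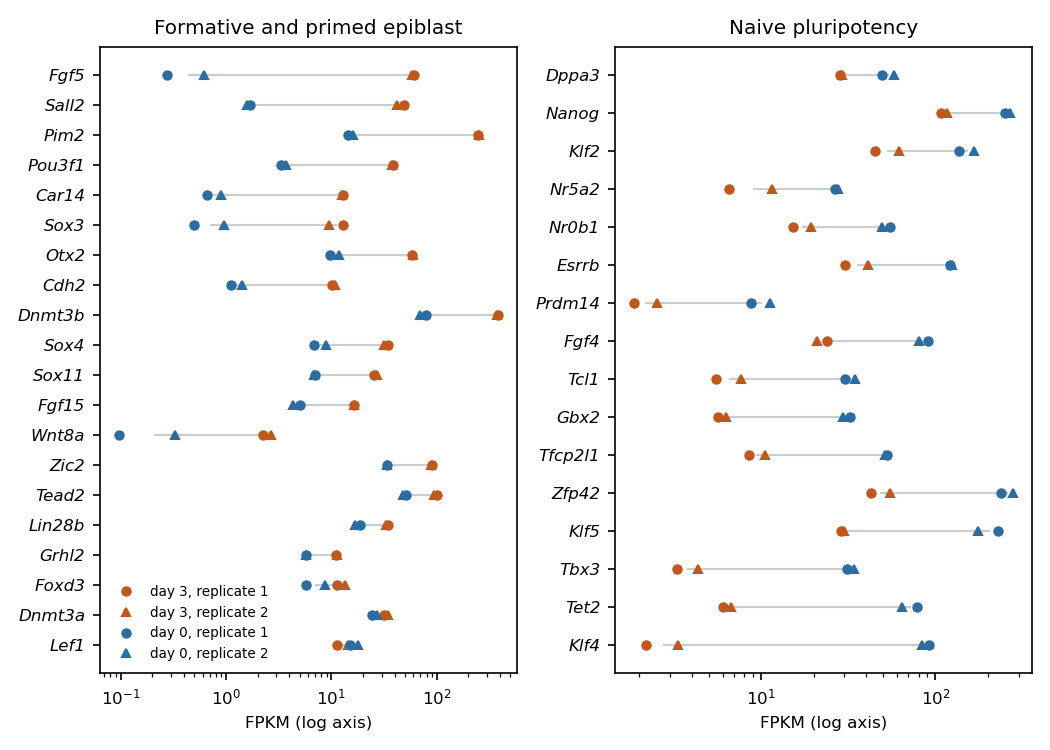
FPKM (log x axis) of the 20 formative and primed epiblast genes on the left and the 16 naive pluripotency genes on the right, 1 gene per line, with circles and triangles for replicates 1 and 2 and grey lines joining the means. Day 3 libraries lie above day 0 libraries for 19 of the 20 formative genes and below them for all 16 naive genes. The days did not overlap for 78.8% of all tested genes.

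Genes of general pluripotency moved little by comparison. Of 14 members 11 were lower and 2 higher, with a median of -0.58, and 4 fell by at least 2-fold. Pou5f1, the POU factor Oct4, had 315 and 309 FPKM at day 3, against 357 and 429 FPKM at day 0 (log2 change -0.33, SE 0.09, adjusted p = 0.0135). Its call ended without wild type day 3 replicate 2 (adjusted p = 0.0657, within 0.00044 to 0.527 over the alternatives). Sox2, its partner, had 133 and 134 FPKM at day 3, against 213 and 222 FPKM at day 0 (-0.71, SE 0.05, adjusted p = 3.11e-05). Both genes kept over 100 FPKM at day 3.

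The larger falls in that list were Tdgf1, the Nodal coreceptor Cripto (-1.57), Dppa2 (-1.37), Dppa5a (-1.24) and Dppa4 (-1.17). Tdgf1 had 235 and 227 FPKM at day 3, against 739 and 644 FPKM at day 0. Lin28a, an RNA-binding protein that blocks let-7 maturation, rose, with 184 and 182 FPKM at day 3, against 124 and 137 FPKM at day 0 (0.49, SE 0.06, adjusted p = 0.000364). L1td1 (-0.71) and Utf1 (-0.45) fell. Calls on the smallest changes depended on 1 library, since Sall4 (-0.33) had an adjusted p of 0.0657 and Zscan10 (0.20) one of 0.0973 without wild type day 3 replicate 1. Without day 3 replicate 1 or 2, Trim71 (-0.16, but 0.0283 after quantile scaling) had 0.0518 and 0.0803. Over the alternatives these p-values ran from 0.00233 to 0.214 for Sall4, from 0.000811 to 0.342 for Zscan10 and from 0.000471 to 0.627 for Trim71. Zfp281 was not called, with 41.3 and 43.8 FPKM at day 3, against 45.6 and 41.1 FPKM at day 0. When all 12 libraries were fitted together 5 members were lower and 1 higher, and the calls of Sox2 (adjusted p = 0.210), L1td1 (0.217), Utf1 (0.526) and Dppa5a (0.0525) were among those that ended.

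Primitive streak genes were mostly still low at day 3. Of 14 members 2 reached the minimum and both were called. Fgf8, a ligand of the streak and the epiblast, had 15.1 and 12.3 FPKM at day 3, against 0.210 and 0.180 FPKM at day 0 (log2 change 3.62, SE 0.12, adjusted p = 2.3e-06). Eomes, a T-box factor of early mesendoderm, had 5.30 and 6.59 FPKM at day 3, against 4.31 and 4.67 FPKM at day 0 (0.33, SE 0.11, adjusted p = 0.0328). The call of Eomes ended without wild type day 3 replicate 2 (adjusted p = 0.181), day 0 replicate 1 (0.127) or day 0 replicate 2 (0.0566), within 0.0144 to 0.427 over the alternatives.

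The other 12 streak genes did not reach the minimum and were not tested. T, the founding T-box gene of mesoderm, had 0.115 and 0.138 FPKM at day 0, 0.798 and 0.650 FPKM at day 3 and 31.5 and 73.0 FPKM at day 6. Mixl1, a homeobox gene of the streak, had 0.304 and 0.331 FPKM at day 0, 0.677 and 0.747 FPKM at day 3 and 14.9 and 43.7 FPKM at day 6. Mesp1, a factor of nascent mesoderm, had 0.193 and 0.207 FPKM at day 0, 0.0336 and 0.0685 FPKM at day 3 and 1.86 and 23.7 FPKM at day 6. All 3 genes were higher at day 6 than on either earlier day, with a wide gap between the day 6 replicates.

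Ligands and inhibitors of the Nodal and BMP pathways moved in both directions. Of 15 tested genes of 19 listed, 8 were higher (53.3%) and 4 lower (26.7%), with a median of 0.40. The shares of all tested genes were 28.6% and 35.1%. Inhbb, the subunit of activin B, fell most among protein coding genes, with 0.0436 and 0.0444 FPKM at day 3, against 34.5 and 28.0 FPKM at day 0 (log2 change -4.94, SE 0.11, adjusted p = 8.07e-07). Bmp4, which supports ESC self-renewal through SMAD1 and ID proteins, had 1.80 and 2.04 FPKM at day 3 and 34.3 and 25.7 FPKM at day 0 (-3.40, SE 0.14). Its target Id1 had 19.005 and 18.98 FPKM at day 3, against 53.4 and 54.0 FPKM at day 0 (-1.45, SE 0.06). The related gene Id2 went the other way, with 23.6 and 22.1 FPKM at day 3, against 6.48 and 5.43 FPKM at day 0 (1.78, SE 0.08).

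On the Nodal side, Nodal itself had 27.0 and 28.8 FPKM at day 3, against 18.996 and 22.9 FPKM at day 0 (0.40, SE 0.10, adjusted p = 0.00966). The Nodal inhibitors Lefty1 (1.62) and Lefty2 (0.96) rose. Fst, follistatin, which binds activins, had 7.13 and 9.64 FPKM at day 3, against 0.721 and 0.716 FPKM at day 0 (2.44, SE 0.13). Gdf3, a TGF-beta ligand of ESCs, fell (-0.62).

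FGF and ERK genes moved in both directions, 6 of 14 higher and 6 lower (42.9% each), with a median of 0.10. Of all tested genes 28.6% were higher and 35.1% lower. The ERK phosphatase genes Dusp4, at 39.7 and 49.4 FPKM at day 3, against 7.09 and 7.28 FPKM at day 0 (2.47, SE 0.09), and Dusp6 (1.31) rose, as did the receptors Fgfr2 (1.07) and Fgfr1 (1.03) and the feedback inhibitor Il17rd (1.65). The ETS factor Etv4 had 8.94 and 11.1 FPKM at day 3 and 53.02 and 53.08 FPKM at day 0 (-2.30, SE 0.09), and Spry4, another feedback inhibitor, fell as well (-1.11). Together with the fall of Fgf4 and the rise of Fgf5, Fgf8 and Fgf15, the set of FGF ligands at day 3 differed from that at day 0. Of 7 tested Wnt targets 1 rose (14.3%), the HMG-box factor Tcf7 (0.85). Another 3 fell (42.9%), Cdx1 (-1.81), the Wnt deacylase Notum (-1.33) and Ccnd1 (-0.23). The shares over all tested genes were 28.6% higher and 35.1% lower. The call of Ccnd1 ended without wild type day 3 replicate 2 (adjusted p = 0.111) or day 0 replicate 1 (0.0787), within 0.0146 to 0.140 over the alternatives. Axin2, the most used readout of Wnt signalling, was not called, with 4.48 and 5.90 FPKM at day 3, against 5.14 and 5.90 FPKM at day 0 (-0.08, SE 0.12, adjusted p = 0.553).

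Within the families of enzymes that write and erase DNA methylation, members moved in opposite directions. Of 13 genes in the list, which also holds imprint guards, 4 were higher (30.8%) and 8 lower (61.5%), against 28.6% and 35.1% of all tested genes. Tet2 and Dppa3 are also in the naive list, and Dnmt3a and Dnmt3b in the formative list. Among the TET dioxygenases, Tet1 had 41.1 and 39.7 FPKM at day 3, against 166 and 131 FPKM at day 0 (log2 change -1.84, SE 0.10), and Tet2 fell as given above. Tet3 had 5.0 and 4.37 FPKM at day 3, against 1.04 and 0.872 FPKM at day 0 (1.54, SE 0.09, adjusted p = 1.31e-05), and so remained lower than Tet1 per length on both days. Among the methyltransferases Dnmt3b rose as given above, and the catalytically inactive cofactor Dnmt3l had 21.7 and 28.0 FPKM at day 3 and 87.9 and 114 FPKM at day 0 (-1.98, SE 0.18).

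Dnmt1, the maintenance methyltransferase, fell slightly, with 56.7 and 57.3 FPKM at day 3, against 78.0 and 77.7 FPKM at day 0 (-0.44, SE 0.05, adjusted p = 0.000217), as did its partner Uhrf1 (-0.33). Dnmt3a had 31.3 and 34.7 FPKM at day 3, against 24.4 and 27.2 FPKM at day 0 (0.34, SE 0.09, adjusted p = 0.0102); its call ended without wild type day 3 replicate 2 (adjusted p = 0.0672) and after removal of GC and length trends (0.327), within 0.00422 to 0.327 over the alternatives. The zinc finger protein Zfp57, which guards imprints with Trim28, had 25.0 and 29.0 FPKM at day 3, against 172 and 162 FPKM at day 0 (-2.58, SE 0.08, adjusted p = 1.66e-06). Trim28 fell (-0.60), whereas Zfp445, a second imprint guard, rose, with 31.4 and 31.2 FPKM at day 3, against 22.8 and 22.8 FPKM at day 0 (0.44, SE 0.04). Tdg, a glycosylase that removes oxidised cytosines, was not called and its days overlapped, at 9.08 and 5.45 FPKM at day 3, against 4.49 and 8.53 FPKM at day 0.

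Among 11 tested genes with a CXXC zinc finger, which binds unmethylated CpG, 5 were higher (45.5%) and 3 lower (27.3%). Over all tested genes 28.6% were higher and 35.1% lower. Cxxc5 itself had 5.05 and 7.08 FPKM at day 3 and 6.87 and 8.64 FPKM at day 0 in the Rinf Knockout libraries, below every wild type library. In wild type it had 30.9 and 36.1 FPKM at day 3, against 31.4 and 25.1 FPKM at day 0 (0.24, SE 0.18, adjusted p = 0.262), with overlapping days. Kdm2b, a demethylase that recruits Polycomb to CpG islands, rose (0.54). Of 17 Polycomb genes 12 were lower and 2 higher, with a median of -0.42. The core subunit Eed had 45.6 and 47.0 FPKM at day 3, against 107 and 111 FPKM at day 0 (-1.22, SE 0.05), and the accessory subunits Epop (-1.34), Jarid2 (-1.04) and Mtf2 (-1.04) fell. Cbx2, a chromodomain subunit of PRC1, rose, with 14.3 and 15.9 FPKM at day 3 and 7.79 and 6.81 FPKM at day 0 (0.95, SE 0.08).

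Germline genes that DNA methylation silences fell, 12 of 14 tested genes lower and 0 higher, with a median of -1.11. Hormad1, a meiotic axis protein, had 1.15 and 1.52 FPKM at day 3, against 12.0 and 13.6 FPKM at day 0 (-2.57, SE 0.14, adjusted p = 1e-05). Syce1 (-2.28), Stk31 (-1.54) and Ddx4 (-1.25) fell too, whereas Sycp3 (0.05) and Tdrd1 (0.08) were not called. With 1 wild type library left out 9 to 12 genes were lower, and at a minimum of 5 FPKM 6 of 7 tested. Of 19 tested imprinted genes 11 were higher and 2 lower, with a median of 0.52. Impact had 109 and 109 FPKM at day 3, against 33.2 and 33.3 FPKM at day 0 (1.68, SE 0.05, adjusted p = 1.29e-06), and Nnat (2.33), Igf2 (1.52), Snrpn (1.43), Meg3 (1.38) and Rian (1.26) rose. The call of Igf2 ended with all 12 libraries in the fit (adjusted p = 0.108, the highest over the alternatives). Phlda2, a regulator of placental growth, fell, with 28.1 and 25.5 FPKM at day 3, against 81.1 and 77.7 FPKM at day 0 (-1.53, SE 0.07).

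Genes of the hypoxia response and glycolysis were lower at day 3. Of 20 genes 18 fell and 0 rose, with a median of -0.75. Vegfa, the vascular growth factor, had 4.15 and 4.08 FPKM at day 3, against 32.1 and 26.7 FPKM at day 0 (log2 change -2.57, SE 0.08, adjusted p = 2.18e-06). Ankrd37 had 4.61 and 5.97 FPKM at day 3, against 35.3 and 41.8 FPKM at day 0 (-2.66, SE 0.12). Egln3, an oxygen sensor, had 5.72 and 7.17 FPKM at day 3, against 39.1 and 34.9 FPKM at day 0 (-2.36, SE 0.10). The mitophagy gene Bnip3 (-2.06) and Ndufa4l2, a HIF-induced mitochondrial protein outside the list (-3.56), fell in the same way.

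Among enzymes of glycolysis, the phosphofructokinase Pfkp had 20.5 and 25.4 FPKM at day 3, against 103 and 99.7 FPKM at day 0 (-2.11, SE 0.09), Hk2, a hexokinase, changed by -1.36 and Pgk1, a kinase of the later steps, by -1.01. Gapdh was not called, with 1096 and 1282 FPKM at day 3 and 1405 and 1326 FPKM at day 0 (-0.20, SE 0.08, adjusted p = 0.0698). The labels state neither the oxygen nor the glucose of the cultures. Of 21 nuclear genes of oxidative phosphorylation 18 were lower and 0 higher, but with a median of only -0.29, and 9 were lower after quantile scaling.

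Cholesterol synthesis and uptake genes rose, 14 of 15 higher and 0 lower, with a median of 0.92. The same 14 genes were called higher in every alternative. Hmgcs1, which makes HMG-CoA, had 199 and 204 FPKM at day 3, against 71.4 and 63.6 FPKM at day 0 (1.57, SE 0.07, adjusted p = 4.29e-06). Sqle, squalene epoxidase, had 94.7 and 92.3 FPKM at day 3 and 30.0 and 30.0 FPKM at day 0 (1.61, SE 0.05), and Msmo1 (1.42) and Cyp51 (1.41) rose with them. Insig1, the sterol-sensing anchor of SREBP, was not called, with 29.3 and 31.3 FPKM at day 3, against 30.1 and 30.0 FPKM at day 0.

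Lysosomal genes rose too, 10 of 13 higher and 2 lower, with a median of 0.66. Ctsl, a cathepsin, had 85.7 and 79.9 FPKM at day 3, against 25.6 and 25.6 FPKM at day 0 (1.65, SE 0.06), and Hexa (1.29) and Npc2, a cholesterol carrier (1.10), rose. Tfeb, a transcription factor of lysosomal genes, fell, with 2.15 and 1.94 FPKM at day 3, against 10.7 and 11.9 FPKM at day 0 (-2.01, SE 0.11).

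Targets of the integrated stress response fell, 11 of 12 lower and 0 higher, with a median of -0.95. Atf4, its central transcription factor, had 133 and 127 FPKM at day 3, against 254 and 265 FPKM at day 0 (-0.99, SE 0.05, adjusted p = 7.35e-06). Chac1, which degrades glutathione, had 3.36 and 3.81 FPKM at day 3, against 32.6 and 29.5 FPKM at day 0 (-2.81, SE 0.08), and the pseudokinase Trib3 had 4.14 and 4.08 FPKM at day 3, against 32.4 and 32.6 FPKM at day 0 (-2.71, SE 0.05). The amino acid synthesis genes Asns (-1.97) and Psat1 (-1.62) fell, as did Nupr1, a stress-induced nuclear protein outside the list, with 3.12 and 2.96 FPKM at day 3, against 53.4 and 55.9 FPKM at day 0 (-3.78, SE 0.07).

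Of 22 cell cycle and DNA replication genes 18 were lower and 0 higher, with a median of -0.44. Under quantile scaling 13 were lower and 2 higher, and with the 4 wild type libraries alone 14 were lower. Ccnd3, a D-type cyclin, stood apart from the rest, with 23.4 and 23.5 FPKM at day 3, against 103 and 94.4 FPKM at day 0 (-2.03, SE 0.08). Ccne1, cyclin E1, had 61.7 and 59.6 FPKM at day 3, against 117 and 107 FPKM at day 0 (-0.87, SE 0.06), while Mki67, Pcna, Mcm7 and Cdc6 were not called. Of 13 p53 targets 7 were higher (53.8%) and 3 lower (23.1%), against 28.6% and 35.1% of all tested genes. The rises were led by Trp53inp1, with 60.5 and 63.6 FPKM at day 3, against 21.7 and 22.4 FPKM at day 0 (1.45, SE 0.06). Cdkn1a, the cell cycle inhibitor p21, was not called (0.34, SE 0.14, adjusted p = 0.0713). Of 40 cytosolic ribosomal protein genes 1 was higher and 2 lower, with a median of -0.02. Those counts depended on single libraries, running up to 16 higher and up to 16 lower when 1 wild type library was left out, and reads of these genes can be shared with pseudogenes.

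**Figure D3:**
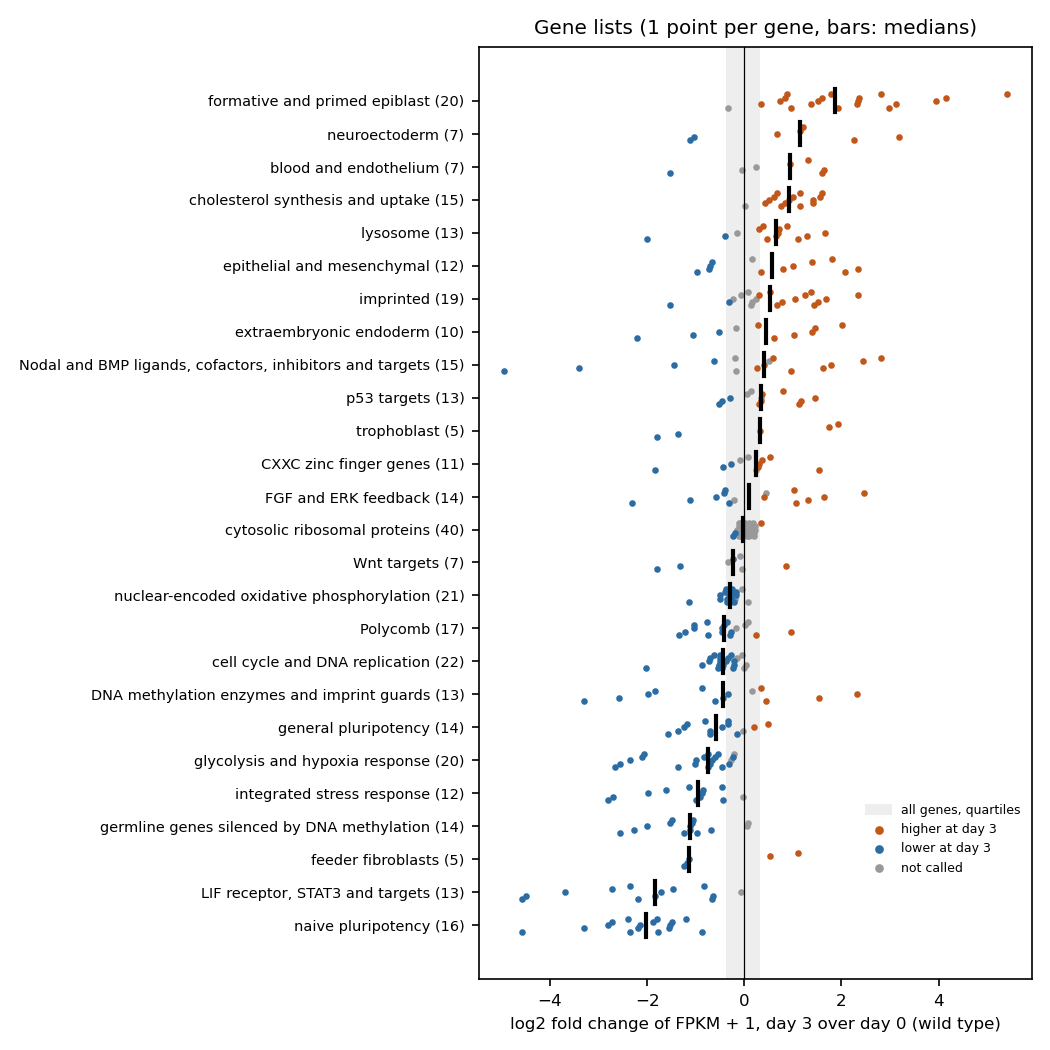
Log2 fold change of FPKM + 1, day 3 over day 0 (x axis), of every tested gene of each list with at least 5 tested members, which are given in brackets, coloured by call, with black bars at the medians and a grey band from the 25th to the 75th percentile of all tested genes. The medians run from -2.01 for the naive genes to 1.86 for the formative and primed epiblast genes.

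Markers of differentiated cells moved in both directions. Of 7 tested neuroectoderm genes of 14 listed, 5 were higher (71.4%) and 2 lower (28.6%), against 28.6% and 35.1% of all tested genes. The list summed to 86.9 and 78.2 FPKM at day 3, against 69.3 and 89.7 FPKM at day 0. The intermediate filament gene Nes had 30.1 and 23.7 FPKM at day 3, against 4.44 and 5.18 FPKM at day 0 (2.26, SE 0.13), and the fatty acid carrier gene Fabp7 had 8.82 and 8.77 FPKM at day 3, against 0.151 and 0 FPKM at day 0 (3.19, SE 0.16). Pax6, an eye and brain homeobox gene, had 5.14 and 4.35 FPKM at day 3 and 1.58 and 1.57 FPKM at day 0 (1.16, SE 0.12), while Tubb3, a neuronal tubulin, fell (-1.04).

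Of 10 tested extraembryonic endoderm genes of 16 listed, 6 were higher (60%) and 3 lower (30%), against 28.6% and 35.1% of all tested genes. Under quantile scaling 4 of 10 were higher, and at a minimum of 5 FPKM 2 of 5. The list summed to 129 and 115 FPKM at day 3, against 164 and 158 FPKM at day 0. The defining factors Gata6 (0.502 and 0.321 FPKM at day 3, against 0.778 and 0.655 FPKM at day 0) and Sox17 (0.2003 and 0.155 FPKM at day 3, against 0.0942 and 0.177 FPKM at day 0) were under the minimum. Gata4, another defining factor, had 1.71 and 1.14 FPKM at day 3, against 0.779 and 0.385 FPKM at day 0 (0.62, SE 0.17, adjusted p = 0.0148). Its call ended with all 12 libraries (0.315), under quantile scaling (0.0551) and without wild type day 0 replicate 2 (0.0676), within 0.00517 to 0.315 over the alternatives. Dab2, an endocytic adaptor, had 6.15 and 4.21 FPKM at day 3, against 0.696 and 0.367 FPKM at day 0 (2.00, SE 0.17), and Lama1, a laminin chain, had 2.56 and 1.71 FPKM at day 3, against 13.4 and 13.4 FPKM at day 0 (-2.22, SE 0.14). Of 5 tested trophoblast genes of 10 listed, 3 were higher (60%) and 2 lower (40%), against 28.6% and 35.1% of all tested genes. The 2 lower genes were Tead4 (-2.43 to -1.68 over the alternatives) and Tfap2c (-1.58 to -1.16), both at least 2-fold lower. Eomes, also a member, was higher, with the limits given above. The epithelial keratins Krt18, with 32.6 and 25.0 FPKM at day 3, against 6.25 and 7.21 FPKM at day 0 (1.94, SE 0.13), and Krt8 (1.73) rose, whereas Cdx2, which defines trophectoderm, had 0.0606 and 0.0617 FPKM at day 3, against 0.0218 and 0.0748 FPKM at day 0. The part of such cells in the changes above was not tested.

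In the blood and endothelium list, 7 of 14 genes were tested, 4 of them higher (57.1%) and 1 lower (14.3%). Over all tested genes 28.6% were higher and 35.1% lower. The list summed to 23.8 and 27.7 FPKM at day 3 and 26.2 and 27.8 FPKM at day 0. Etv2, an ETS factor of the blood and vessel lineage, had 5.18 and 4.602 FPKM at day 3, against 0.800 and 1.07 FPKM at day 0 (1.61, SE 0.10). Kdr, the VEGF receptor of early mesoderm, had 1.67 and 2.42 FPKM at day 3, against 0.105 and 0.201 FPKM at day 0 (1.39, SE 0.14), and its call ended with all 12 libraries in the fit (adjusted p = 0.0956, the highest over the alternatives). Without wild type day 3 replicate 2, 5 genes of the list were tested and 2 were higher, and at a minimum of 5 FPKM 0 of 1 was higher. These values remained low on the per-length scale. Pecam1, an adhesion molecule of endothelium that ESCs also express, fell, with 5.20 and 8.17 FPKM at day 3, against 20.2 and 21.0 FPKM at day 0 (-1.52, SE 0.18).

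Of 12 tested epithelial and mesenchymal genes 7 were higher (58.3%) and 4 lower (33.3%), against 28.6% and 35.1% of all tested genes. The tight junction genes Cldn6, with 72.8 and 66.4 FPKM at day 3, against 18.2 and 13.7 FPKM at day 0 (2.07, SE 0.14), and Cldn7 (1.81) rose. Cdh1, E-cadherin, was not called, with 207 and 196 FPKM at day 3 and 196 and 166 FPKM at day 0 (0.16, SE 0.09, adjusted p = 0.146). The mesenchymal genes did not move as 1 group, since Zeb2 (1.40) rose and Fn1 (-0.97), Vim (-0.73) and Zeb1 (-0.71) fell. The count of lower genes was 2 without wild type day 3 replicate 2 and with all 12 libraries in the fit.

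Beyond the lists, the largest rises among protein coding genes included Kif1a, an axonal kinesin, with 38.2 and 33.6 FPKM at day 3, against 0.846 and 0.777 FPKM at day 0 (4.35, SE 0.09), and Sema6a, a semaphorin, with 42.3 and 42.4 FPKM at day 3, against 1.14 and 1.44 FPKM at day 0 (4.25, SE 0.14). Enpp2, which makes lysophosphatidic acid, had 24.5 and 21.7 FPKM at day 3, against 0.771 and 0.682 FPKM at day 0 (3.80, SE 0.10), and the zinc finger gene Zfp608 had 21.7 and 22.2 FPKM at day 3, against 0.372 and 0.479 FPKM at day 0 (4.01, SE 0.11). All of these were under 1.5 FPKM at day 0. Cd24a, a surface glycoprotein, was more abundant, with 136 and 146 FPKM at day 3, against 10.1 and 11.5 FPKM at day 0 (3.59, SE 0.08).

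The largest falls outside the lists included Tgm1, a transglutaminase (-3.66), Pcolce, an enhancer of procollagen processing (-3.58), Gm7325 (-3.50) and Krt17, a keratin (-3.49). Pcolce had 3.68 and 2.78 FPKM at day 3, against 51.3 and 46.9 FPKM at day 0. The rule for the largest changes also gave 8 short RNAs, 5 higher (Mir686, Mir709, Mir654, Mir20a and Snora24) and 3 lower (Mir27a, Mir297a-3 and Mir6338). Mir654 had 18.4 and 37.5 FPKM at day 3 and was listed at 0 in both day 0 libraries, and the ratio of its day 3 values, 2.04, equals that of the estimated depths of these libraries, 2.04. The calls of Mir654 and Mir20a ended with no minimum FPKM (adjusted p = 0.0690 and 0.0714). They also ended after removal of GC and length trends (0.0555 and 0.0577). No fold is given for the 8 short RNAs.

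Genes with few CpG before their start were more frequent among large falls. The 250 bases before the start held a median of 13 CpG over all tested genes with a promoter (96.8% of 12112), 10 among genes at least 2-fold higher and 8 among genes at least 2-fold lower. At most 5 CpG were present in 22.1% of all tested genes, 31.8% of the 2-fold higher, 38.9% of the 2-fold lower and 22.5% of the genes not called. Among the 7388 tested genes with a single promoter in the RefSeq table the medians were 17 CpG over all, 17 for the 2-fold higher, 11 for the 2-fold lower and 17 for the genes not called, so the lower count of the 2-fold higher genes was not seen there. Of 418 tested genes on chromosome X 37.8% were higher and 28.2% lower, with a median of 0.10, and no autosome had as large a share of higher genes. These shares are descriptions, without a test.

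**Figure D4:**
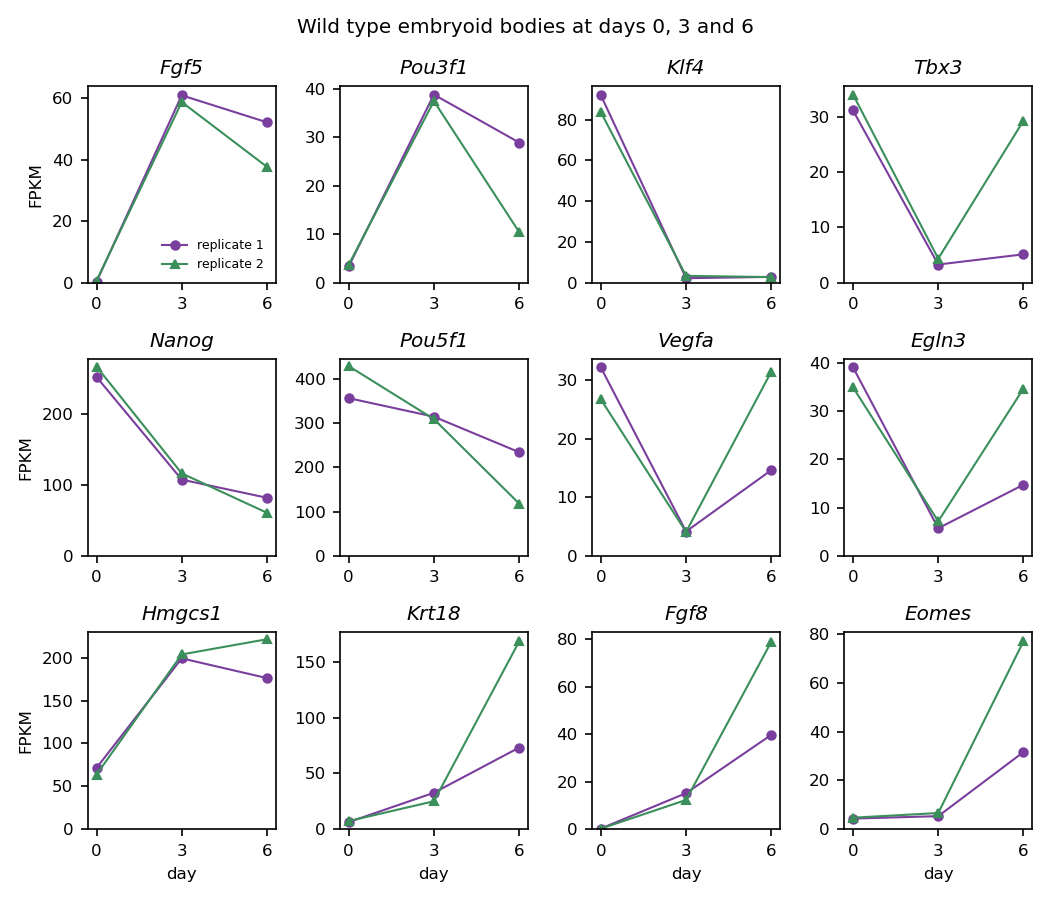
FPKM (y axis) of 12 genes in wild type embryoid bodies at days 0, 3 and 6 (x axis), with 1 line per replicate number. Fgf5 and Klf4 reached their day 3 level and stayed near it, Vegfa, Egln3 and replicate 2 of Tbx3 were high again at day 6, and the day 6 replicates lie far apart for Krt18, Fgf8 and Eomes.

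Most large changes were kept at day 6, as a description and without a test. Of the 849 genes at least 2-fold higher at day 3, 459 (54.1%) were at or beyond that change at day 6, 325 showed at least 50% of it and 65 less than 50%. Of the 726 genes at least 2-fold lower, 457 (62.9%) were at or beyond it, 209 showed at least 50% and 60 less than 50%. Fgf5 had 52.1 and 37.7 FPKM at day 6 and Klf4 2.83 and 2.72 FPKM. Some genes came back, among them Vegfa, with 14.6 and 31.4 FPKM at day 6, and Egln3, with 14.8 and 34.7 FPKM. Tbx3 had 5.13 and 29.3 FPKM at day 6, so that 1 replicate had returned near its day 0 level and the other had not. Pou5f1 was at 234 and 118 FPKM at day 6 and Nanog at 81.9 and 60.7 FPKM.

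The same days in Rinf Knockout cells gave a similar course. There 3358 genes were higher and 3956 lower at day 3, and 1563 of the 1575 genes with a called change of at least 2-fold in wild type (99.2%) had the same sign. Across the 12112 genes the changes of the genotypes, which share no library, had an r of 0.863, as a description. Of the 16 naive genes 15 were lower in knockout, with a median of -1.73 against -2.01 in wild type, and of the 20 formative genes 17 were higher and 1 lower, with a median of 1.62 against 1.86.

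A test of the difference between the changes called 16 genes (0.132%), 13 with a change higher in knockout (0.107%) and 3 with one lower (0.0248%). An unadjusted p under 0.05 was found for 1722 genes (14.2%), so the few calls do not show that the genotypes changed alike. Eomes rose in knockout, with 10.2 and 11.6 FPKM at day 3, against 2.65 and 2.32 FPKM at day 0, more than in wild type (difference 1.44, SE 0.16, adjusted p = 0.0416). Gja1, connexin 43, rose less in knockout, with 231 and 213 FPKM at day 3, against 64.7 and 62.9 FPKM at day 0, than in wild type, with 232 and 231 FPKM at day 3, against 40.4 and 42.3 FPKM at day 0 (difference -0.68, SE 0.08, adjusted p = 0.0480). In Gja1 the genotypes lie close together at day 3 and stand apart at day 0. Of the fits that left out 1 of the 8 libraries, 1 called Eomes and 1 called Gja1, and over all alternatives the adjusted p ran from 0.0297 to 0.514 for Eomes and from 0.0358 to 0.297 for Gja1.

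The count of 16 rested on single libraries. It was 32 without wild type day 3 replicate 2, 35 without wild type day 0 replicate 2, 9 and 5 without knockout day 3 replicates 1 and 2, and 1 without either knockout day 0 library. With the trends of GC content and length removed it was 0 by limma, with 1872 genes at an unadjusted p under 0.05.

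**Figure D5:**
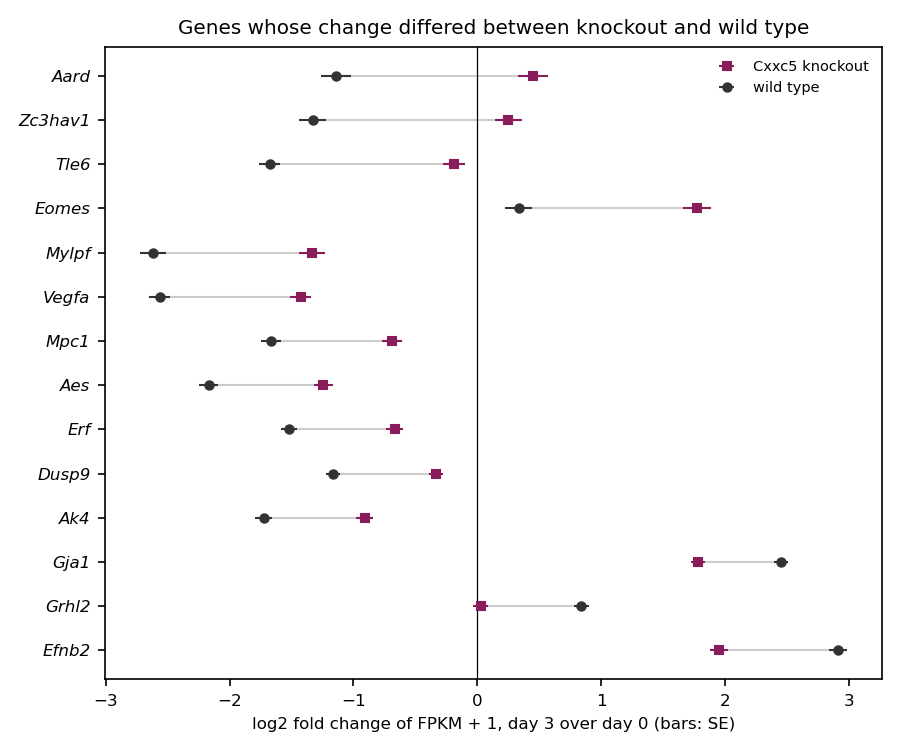
Log2 fold change of FPKM + 1, day 3 over day 0 (x axis, with SE bars), in Cxxc5 knockout (squares) and wild type (circles) for 14 of the called genes that are not short RNAs. The wild type change lies further from 0 than that in knockout for every gene plotted except Eomes.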

How the data were processed

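Total RNA of embryoid bodies was sequenced as single-end reads, and the authors deposited 1 table of FPKM values for 12 libraries, after trimming with Trim Galore 0.4.1 and mapping with TopHat2 2.0.13 to mm10, per the labels. The submitters' processing notes also name Cufflinks 2.2.1, Cuffdiff and HTSeq 0.6.1 without roles; the sources do not state strand use or annotation. The table's 92 spike-ins are listed at 0 and were left out. Since the values are not counts, limma 3.58.1 (R 4.3.3) was run on log2(FPKM + 1), a pseudocount of 1, with 1 mean per genotype and day in 8 libraries, a variance trend, two-sided tests and a threshold of 0.05; it was tested on simulated data. Wild type day 3 was compared with day 0, and an interaction term tested the difference from knockout. Day 6 was left out because 864 wild type genes differ by over 1.5-fold between its replicates, against 192 and 227 at days 3 and 0.

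Depth came from the steps of 1 read in low values: of 5808 ratios of low values, 69.1% were ratios of whole numbers up to 6 (tolerance 0.02 on the log2 scale). Fewer reads make low genes less precise. No library duplicated another, with at most 3 identical values in a pair. The series' design text gives 2 lines per genotype, but no source used here ties replicate numbers to them, so the fit with the number as a block is an alternative only. Positions, promoters and CpG are from RefSeq GRCm38.p6, matched by symbol for 11738 genes.

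Members, 31 gene lists, tests and alternatives were chosen with earlier results of these data known. Named were the 12 largest called, non-overlapping changes in each direction, the naive, general, formative, streak and DNA methylation lists in full, up to 4 called members of each other list, Cxxc5, the 5 genes with the highest levels, genes at the FPKM minimum and up to 5 differing from knockout per direction; other genes were added after their values were seen. A few genes that this rule covers are not reported here. An ESC table whose 3 columns per group could not be matched to 2 samples was not used. Alternatives were other pseudocounts, minimums, scalings, sets of libraries, the block, no variance trend and leaving out each library; removal of GC content and length trends and of short RNAs was chosen after seeing the data.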

Additional observations from a re-analysis of the deposited data

Results flagged for a closer look

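Given here are 7 of the genes named by rule whose change between days 0 and 3 differed between knockout and wild type, by limma's interaction term. The difference is the knockout change minus the wild type change. Eomes, given above, and Vegfa were also named by rule and called. Vegfa fell less in knockout (-1.43) than in wild type (-2.57), with a difference of 1.14 (adjusted p = 0.0416). Its highest adjusted p over the alternatives was 0.514. Scarna3a, a small Cajal body RNA, was listed at 0 in all 4 knockout libraries and in both wild type day 3 libraries, and had 8.39 and 7.199 FPKM in wild type at day 0 (difference 3.13, adjusted p = 0.00157). The ratio of its values in wild type at day 0, 1.165, equals the inverse ratio of the estimated depths of these libraries, 1.165, as an equal number of reads in both would give, and the p does not include that counting error. Its call ended with all 12 libraries in the fit (adjusted p = 0.604) and after removal of GC and length trends (0.0685), within 0.000259 to 0.604 over the alternatives. Aard had 12.7 and 15.5 FPKM at day 3, against 8.96 and 11.1 FPKM at day 0 in knockout, and 3.54 and 3.29 FPKM at day 3, against 8.45 and 9.06 FPKM at day 0 in wild type (1.59). Zc3hav1, an antiviral zinc finger gene, had 12.6 and 16.1 FPKM at day 3, against 11.3 and 12.3 FPKM at day 0 in knockout, and 4.07 and 4.58 FPKM at day 3, against 12.2 and 12.5 FPKM at day 0 in wild type (1.58). Tle6 had 4.93 and 5.37 FPKM at day 3, against 5.58 and 6.45 FPKM at day 0 in knockout, and 1.42 and 1.65 FPKM at day 3, against 7.17 and 7.05 FPKM at day 0 in wild type (1.49).

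Efnb2, the ephrin B2 gene, had 27.5 and 25.3 FPKM at day 3, against 6.11 and 6.05 FPKM at day 0 in knockout, and 27.3 and 29.6 FPKM at day 3, against 2.75 and 3.06 FPKM at day 0 in wild type (-0.96). Grhl2 had 10.1 and 9.30 FPKM at day 3, against 9.76 and 9.19 FPKM at day 0 in knockout, and 11.05 and 11.2 FPKM at day 3, against 5.79 and 5.80 FPKM at day 0 in wild type (-0.81). Gja1 rose less in knockout (-0.68). Each of the other calls ended in at least 4 of the 8 fits that left out 1 library, and Aard and Grhl2 were called in 0 of them.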

How the results depend on the processing

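The 7713 calls of day 3 against day 0 numbered 5580 to 9456 over the alternatives and 6571 to 7749 with 1 library left out, all within 1.5 times. The counts 5580 and 9456 came from 8680 and 19472 tested genes, against 12112 in the main fit. The 4 wild type libraries alone gave 6413 calls among 12112 genes. Of the 172 called named genes 141 were called in every one of the 19 alternatives in which they were tested. The 16 differences between genotypes were 40 with a pseudocount of 0.1, 1 with no minimum FPKM, 3 with all 12 libraries, 2 with no variance trend, 0 with GC content and length trends removed, 10 without short RNAs, 10 with the replicate block and 1 to 35 with 1 library left out; the causes were not tested, though 4 of these settings change the genes or libraries fitted. The replicate block gave 7387 calls between the days and ended 2 named calls, Rpl12 and Mir654, while Lef1 was called lower (adjusted p = 0.00996). It ended 10 of the 16 genotype differences, among them Efnb2 (0.0728), Gja1 (0.105) and Grhl2 (0.0929). Same-numbered libraries' deviations from their group means correlated at -0.027 in wild type and 0.013 in knockout. Among named genes the sign turned for 7. Zfp281 was 0.131 under quantile and 0.0242 under median ratio scaling and ran from -0.0981 to 0.0490 with 1 library left out, and Trim71 was 0.0283 under quantile scaling. With 1 library left out Tdg ran from -0.241 to 0.555, Rpph1 from -0.304 to 0.485, Rmrp from -0.589 to 0.5997, Eef1a1 from -0.00456 to 0.113 and Rps26 from -0.00279 to 0.0296. With the trends removed Rpph1 was -0.0721 and Rmrp -0.132, and Rmrp was -0.192 under quantile scaling. The medians of the FGF, blood, extraembryonic endoderm, feeder and ribosomal lists changed sign in at least 1 alternative; at a minimum of 5 FPKM they were -0.21, -1.52, -0.51 and 0.53 for the first 4. Values far under 1 FPKM rest on few reads, so the lowest streak and lineage values at day 3 are imprecise.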
